A study of Mus musculus with 6 samples.

Results

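The genes described here encode 35 proteins of the lysosome, 26 that take part in degradation (hydrolases, the membrane acetyltransferase of Hgsnat and the activator of Gm2a) and 9 proteins of its limiting membrane. They were chosen by name, as lysosomal genes other than the cathepsins and the genes of acidification, and all 35 were found among the 43346 genes of the table of counts. The libraries came from cerebellar RNA of 6 mice aged 15 months, 1 library per mouse. Of these, 3 were wild type (WT) and 3 were knockouts labelled Tmem106b-/- (KO), with 1 female and 2 males in each genotype. The sources used here do not give how the allele was made, the strain background or whether litters were shared. The p-values weigh the difference between genotypes against the spread between these mice. TMEM106B itself sits in the membrane of the lysosome, so that the comparison asks how the other genes of this organelle stood in the knockouts.

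Libraries held 25245778 to 31135185 counts. CPM gives the reads of a gene relative to those of all tested genes in its library, after scaling between libraries. Tmem106b was at 230 to 267 CPM in WT and at 62.7 to 69.7 CPM in KO (log2 fold change -1.88, SE 0.08). Each mouse fell where its label puts it. Reads of the gene thus remained in KO, at a fold of 0.272. All 8 granule cell and all 10 Purkinje cell markers listed for the cerebellum were expressed. WT replicate 1 and KO replicate 1, the 2 females, stood apart from the rest on the first and second principal components, with -40.1 and 38.5 against -10.8 to 22.0 and -14.4 to 5.98 for the other libraries.

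Lysosomal hydrolases work at acid pH and take apart sphingolipids, glycosaminoglycans, glycoproteins, glycogen and proteins that reach the organelle by endocytosis or autophagy. Most are glycoproteins that carry mannose 6-phosphate, by which receptors sort them to the lysosome, and the loss of almost any one of them causes a storage disease, often with neuronal loss. Many genes of the family are known targets of TFEB and its relatives, transcription factors that bind a palindromic E-box element when lysosomal function is strained. The membrane proteins shield the limiting membrane, carry hydrolases to it or export the products of digestion.

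The promoters of these genes are shown first, because the E-box played no part in the choice of the members and some of them carry it. RefSeq (GRCm38.p6, the mm10 assembly) gave a promoter window, from 250 bases before to 50 after the annotated start, for 32 of the 35 members. Some had several annotated starts, so that there were 37 windows, and a match in any window of a gene counted. Asah1, Hgsnat and Plbd2 had no entry. The core CACGTG, which reads the same on both strands, was present in 9 of the 32 (28.1%), against 8.91% of 17492 protein-coding genes and 8.09% of all 27025 genes with such a window. The longer form GTCACGTG, searched on both strands and containing the core, was present in 8 members (25.0%), all of the 9 but Gaa, against 3.19% of protein-coding genes. The full palindrome of 10 bases, in capitals in the Cln3 sequence, was present in 1 member (3.1% against 0.47%). These are matches of letters and not measured binding.

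Lamp1 held 4 copies of the core within its window, a number reached by 6 of the 27025 genes (0.0222%). Its promoter on the plus strand, chr8:13158911-13159210, is printed with the cores in capitals, because this gene is also the most abundant member per length.
Lamp1: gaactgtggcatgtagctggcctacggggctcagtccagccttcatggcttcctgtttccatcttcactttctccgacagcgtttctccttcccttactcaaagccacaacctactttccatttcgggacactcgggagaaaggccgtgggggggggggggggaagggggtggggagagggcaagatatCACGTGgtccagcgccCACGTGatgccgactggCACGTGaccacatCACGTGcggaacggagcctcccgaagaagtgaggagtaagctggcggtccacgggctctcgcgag

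The other 8 members with a core are shown with 30 bases around it, 5′ to 3′ on the strand of the gene, with the longest of the searched forms at that place in capitals. Gla and Cln3 each hold a second core that is not printed.
Arsa, chr15:89477423-89477452, minus strand: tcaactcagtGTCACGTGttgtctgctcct
Cln3, chr7:126583340-126583369, minus strand: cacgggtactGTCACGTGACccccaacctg
Gaa, chr11:119267811-119267840, plus strand: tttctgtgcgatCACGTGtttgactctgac
Gla, chrX:134601182-134601211, minus strand: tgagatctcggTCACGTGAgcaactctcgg
Glb1, chr9:114401018-114401047, plus strand: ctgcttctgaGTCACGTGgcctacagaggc
Lgmn, chr12:102439124-102439153, minus strand: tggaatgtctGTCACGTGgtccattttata
Naglu, chr11:101070009-101070038, plus strand: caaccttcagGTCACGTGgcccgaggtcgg
Sgsh, chr11:119355522-119355551, minus strand: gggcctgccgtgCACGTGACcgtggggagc
The core began 16 bases before the start in Arsa, 29 in Sgsh, 48 in Glb1, 49 in Lgmn and 73 in Naglu. It began 121 bases before the start in Cln3, 140 in Gaa and 194 in Gla. Cln3 and Lgmn each have another annotated start, further upstream, whose window holds no core. Gla is capitalised for TCACGTGA, a form of equal length that 2 members held (6.2%, against 1.41% of protein-coding genes), and holds GTCACGTG as well.

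Levels per length spanned 83.4-fold among the 34 members that passed the filter on low counts. Lamp1, which encodes the main glycoprotein of the lysosomal membrane, stood at the top with 209.8 CPM per kilobase, and Sgsh, which encodes the sulfamidase of heparan sulfate degradation, at the bottom with 2.515 CPM per kilobase. The median of the members was 13.67 CPM per kilobase, against 5.74 for all 16934 genes tested, and 27 of the 34 lay above the midpoint of all genes. Next in order after Lamp1 came the tetraspanin gene Cd63 at 80.2, the iduronate sulfatase gene Ids at 59.8, the legumain gene Lgmn at 49.6 and the acid sphingomyelinase gene Smpd1 at 47.1 CPM per kilobase. Some transporters of the membrane were among the lowest, with Mfsd8 at 4.80, the sialic acid exporter gene Slc17a5 at 4.45 and Cln3 at 2.83 CPM per kilobase. The transporter gene Ctns was higher, at 8.34. Hydrolase genes also lay at this end, with Naglu at 4.12, Gusb at 4.03 and Manba at 3.85 CPM per kilobase.

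**Figure D1:**
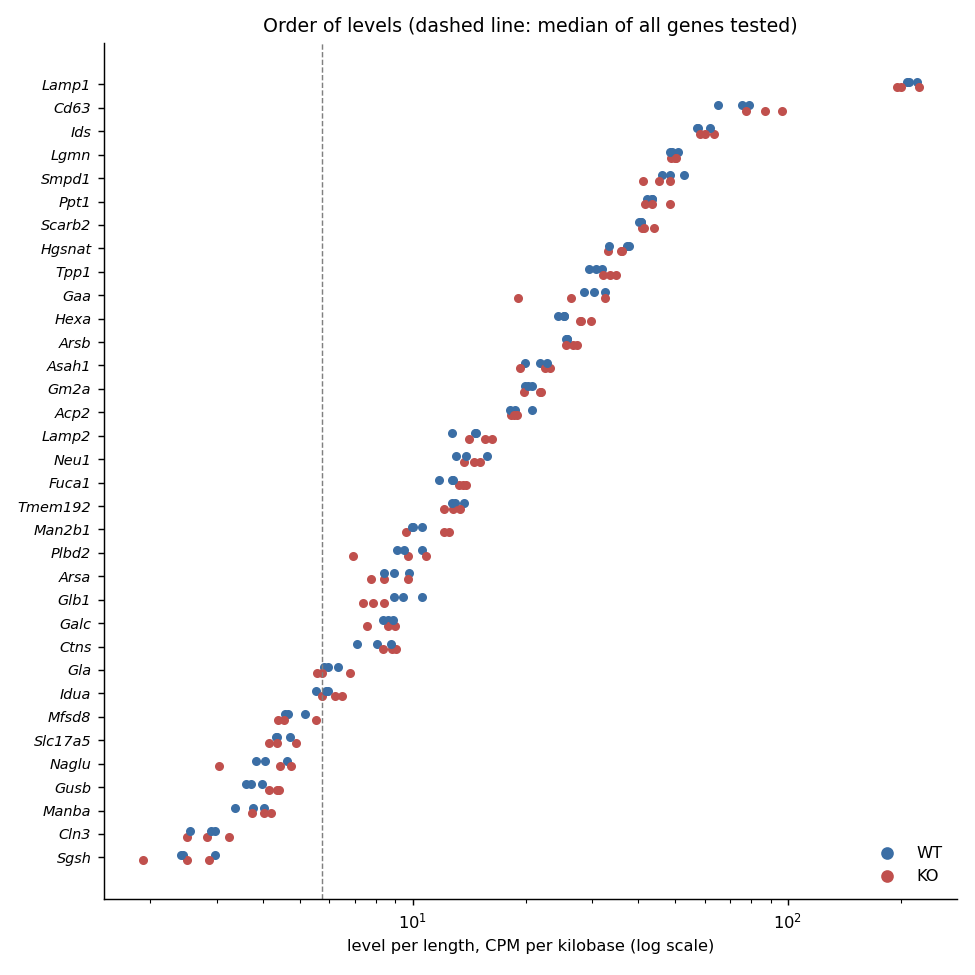
Level per length of the 34 tested genes, in CPM per kilobase on a log axis, with 1 point per mouse (WT blue, KO red) and the genes in order of their mean. Lamp1 lies at 209.8 and Sgsh at 2.515 CPM per kilobase, and for most genes the WT and KO points lie over each other.

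Acp5, which encodes the tartrate-resistant acid phosphatase of osteoclasts and macrophages, was the member left out by the filter. Its counts were 2, 6 and 5 in the WT mice and 0, 5 and 4 in the KO mice. At this depth no difference was detectable, and no fold is given.

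None of the 34 tested members passed the test between genotypes. At an edgeR p (quasi-likelihood) adjusted by Benjamini-Hochberg across all genes, 0 members were higher and 0 lower in KO under 0.05, where 0.136% and 0.148% of all genes were (0.283% in either direction). The smallest adjusted p among them was 0.429. DESeq2 and limma-voom also called 0, against 1.26% and 0.254% of the genes they tested, with 3 members each at an unadjusted p under 0.05, where 6.95% and 8.89% of all genes were. The count was 0 as well with other settings of edgeR, against a background of 0.443% (scaling by RLE), 0.514% (a mean of 1 CPM or more), 0.751% (no filter), 0.331% (the newer version of the test), 0.36% (sex left out of the model), 0.651% (the 4 males) and 0.644% (a threshold of 0.10). With 1 mouse left out it was 0 against 0.54%, 0.00582% and 0.00581% (WT replicates 1, 2 and 3) and 0.679%, 0.0929% and 0.906% (KO replicates 1, 2 and 3). At an unadjusted p under 0.05 in edgeR 3 members passed, Hexa and Cd63 higher and Glb1 lower, which is 8.82% of the members against a background of 8.96% (4.71% higher, 4.25% lower). The 3 KO mice lay apart from the 3 WT mice in 6 members, 5 of them higher in KO (Hexa, Gusb, Fuca1, Tpp1 and Scarb2) and 1 lower (Glb1). That is 17.6% of the members, near the background of 14.1% (7.77% higher, 6.35% lower).

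Differences were small as well as short of the threshold. Log2 fold changes (KO over WT) ran from -0.29 to 0.25, with a median of 0.02 and 20 members above 0 and 14 below. The median over all genes tested was 0.0003. In 33 of the 34 members the 95% interval of the difference lay within 1.5-fold in both directions, the exception being Gaa, whose interval reached -0.62. The share was 68.6% for all genes tested and 93.9% for the 9871 other genes whose mean level lay in the members' range, 10.95 to 473 CPM. The median absolute log2 fold change was 0.06 in the members and 0.08 in those other genes.

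**Figure D2:**
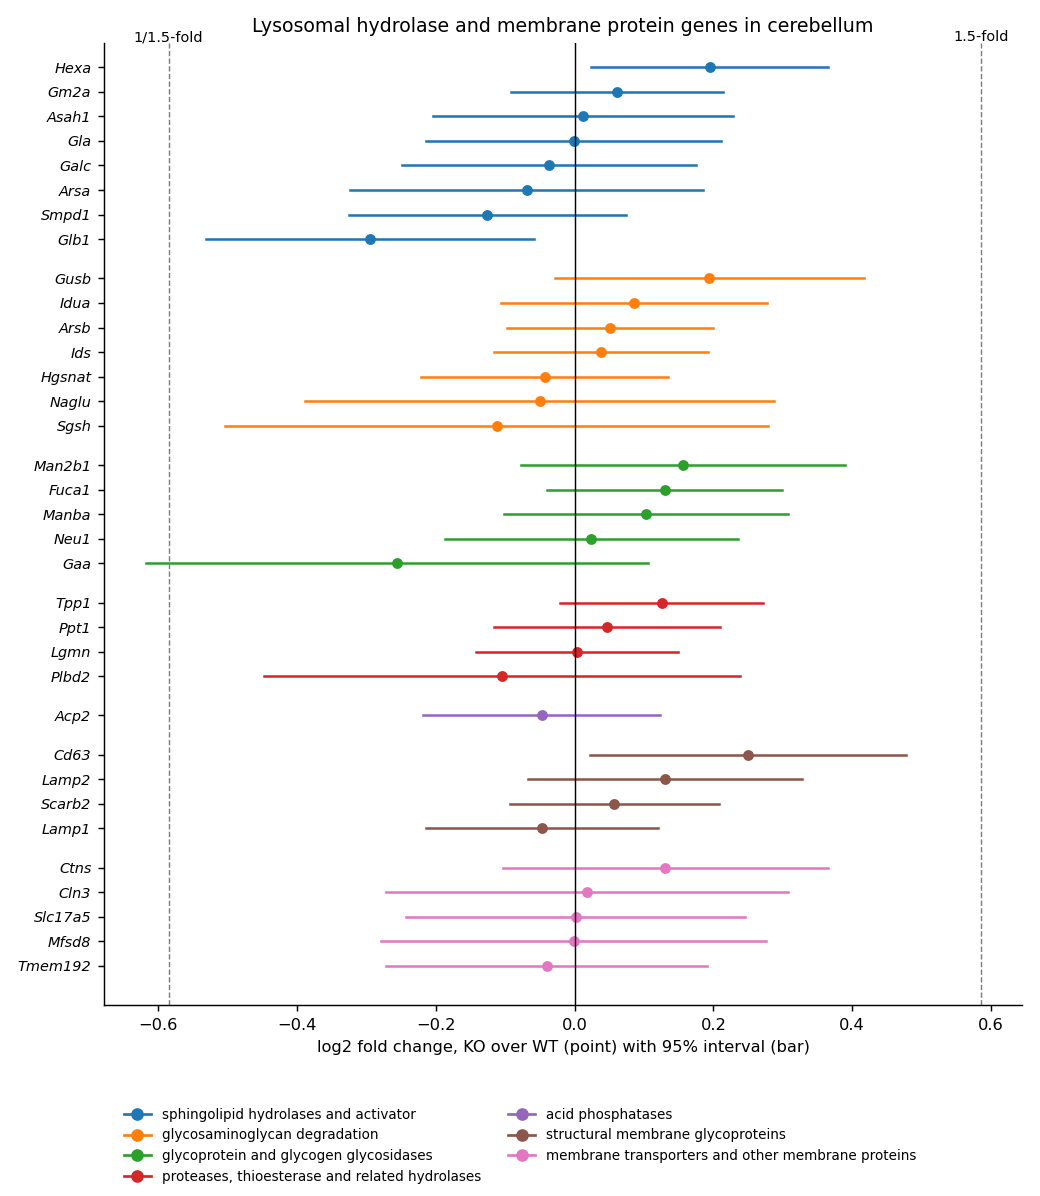
Log2 fold change of KO over WT for the 34 tested genes, grouped by role (colours), with 95% intervals from edgeR as bars and dashed lines at 1.5-fold in each direction. The intervals lie inside the dashed lines in 33 genes, and that of Gaa crosses the lower one.

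Genes of sphingolipid degradation did not move together, with 3 of 8 above 0, 5 below and a median of -0.02. Hexa encodes the alpha subunit of beta-hexosaminidase A, the enzyme that is missing in Tay-Sachs disease and removes a sugar from the ganglioside GM2. The gene (ENSMUSG00000025232) lies at chr9:59539667-59565105 in mm10. It stood at 47.3, 45.5 and 47.1 CPM in the WT mice and at 52.1, 52.5 and 55.6 CPM in the KO mice. Every KO mouse lay above every WT mouse, by a small margin. The log2 fold change was 0.19 (SE 0.07, unadjusted p = 0.030, edgeR adjusted p = 0.489), and the adjusted p ran from 0.0729 to 0.996 over 16 alternatives. Gm2a, which encodes the activator that lifts GM2 out of the membrane for this enzyme, was at 83.9 ± 1.89 CPM in WT against 87.6 ± 5.23 CPM in KO (SD, n = 3 each).

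Glb1, which encodes the beta-galactosidase that acts one step earlier on GM1, went the other way. The gene (ENSMUSG00000045594) lies at chr9:114401076-114474376. Its level was 22.6, 25.3 and 21.3 CPM in WT against 17.6, 20.1 and 18.8 CPM in KO. The KO values all lay below the WT values, at a log2 fold change of -0.29 (SE 0.10, unadjusted p = 0.020, edgeR adjusted p = 0.429), the lowest of the members. Glb1 overlaps Tmppe, which had 83.7% as many counts as Glb1 and a log2 fold change of -0.03 (SE 0.09). The counting of strands is not given in the sources used here, so reads of such a pair cannot be told apart. Smpd1, the most abundant gene of this group per length, was at 127, 111 and 117 CPM in WT against 99.4, 109 and 117 CPM in KO. Its groups overlapped, and its log2 fold change was -0.13 (SE 0.09). It came to -0.02 in the males alone and -0.05 with the GC and length trend of each library removed. Leaving out WT replicate 1 (-0.01) or KO replicate 1 (-0.02) is nearly the comparison of the males, because the sex term then fits the other female.

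Galc and Arsa, whose enzymes degrade the myelin lipids galactosylceramide and sulfatide, had log2 fold changes of -0.04 (SE 0.09) and -0.07 (SE 0.11). Gla, the alpha-galactosidase gene of Fabry disease, and Asah1, the acid ceramidase gene, were at -0.001 (SE 0.09) and 0.01 (SE 0.09). The edgeR adjusted p-values of these 4 genes ran from 0.884 to 0.998, and the intervals of all 4 lay within 1.5-fold.

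Among the 7 genes of glycosaminoglycan degradation 4 lay above 0 and 3 below, at a median of 0.04. Ids, by far their most abundant member, was at 292, 317 and 295 CPM in WT against 325, 306 and 297 CPM in KO. The groups overlapped, and the difference of the means (301 ± 13.8 and 309 ± 14.02 CPM, SD, n = 3 each) was smaller than either SD (0.04, SE 0.07). Gusb, which encodes beta-glucuronidase, was at 16.8, 18.1 and 16.4 CPM in WT against 20.0, 19.8 and 18.9 CPM in KO. All KO mice lay above all WT mice (0.19, SE 0.10, edgeR adjusted p = 0.631). Arsb, Hgsnat, Idua, Naglu and Sgsh, which encode the enzymes for dermatan and heparan sulfate, ran from -0.11 to 0.09. Idua overlaps Dgkq, which had 341% as many counts.

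Glycosidases of glycoproteins and glycogen had 4 of 5 members above 0 and a median of 0.10. Man2b1 (0.16, SE 0.10), Fuca1 (0.13, SE 0.07), Manba (0.10, SE 0.09) and Neu1 (0.02, SE 0.09) encode the lysosomal alpha-mannosidase, fucosidase, beta-mannosidase and sialidase. Fuca1 was higher in each KO mouse, with 38.4, 41.9 and 41.8 CPM in WT against 43.5, 44.6 and 45.5 CPM in KO, at an edgeR adjusted p of 0.683. Gaa, the glycogen-degrading acid glucosidase gene of Pompe disease (ENSMUSG00000025579, chr11:119267887-119285454), varied widely between the KO mice. It was at 156, 146 and 137 CPM in WT against 91.3, 126 and 156 CPM in KO. The low KO value is that of replicate 1, the female, while KO replicate 3 lay within the WT range. Its log2 fold change of -0.26 (SE 0.16, edgeR adjusted p = 0.708) was -0.40 without KO replicate 3 and -0.01 in the males alone. Leaving out KO replicate 1 (-0.01) or WT replicate 1 (-0.002) gave nearly the same comparison, because the sex term then fits the other female.

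Among the proteases and related hydrolases, Tpp1 and Ppt1 encode the peptidase and the thioesterase that are lost in the late infantile and the infantile form of neuronal ceroid lipofuscinosis. Tpp1 was at 112, 103 and 108 CPM in WT against 122, 118 and 113 CPM in KO. The KO mice were all higher, by a narrow gap in the closest pair, at 0.13 (SE 0.06, edgeR adjusted p = 0.639). Ppt1 was at 0.05 (SE 0.07) and overlaps Cap1, which had 89.8% as many counts. Lgmn, the asparaginyl endopeptidase gene, differed least in this group, with 118, 114 and 113 CPM in WT against 113, 116 and 117 CPM in KO. Its fold of 1.002 had a 95% interval of 0.906 to 1.108. Plbd2, which encodes a phospholipase-like lysosomal protein, was at -0.11 (SE 0.15), with its lowest value in KO replicate 1. Acp2, the lysosomal acid phosphatase gene, was at 97.2, 108 and 94.5 CPM in WT against 98.2, 95.1 and 96.4 CPM in KO (-0.05, SE 0.07), and overlaps Ddb2, which had 16.9% as many counts.

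**Figure D3:**
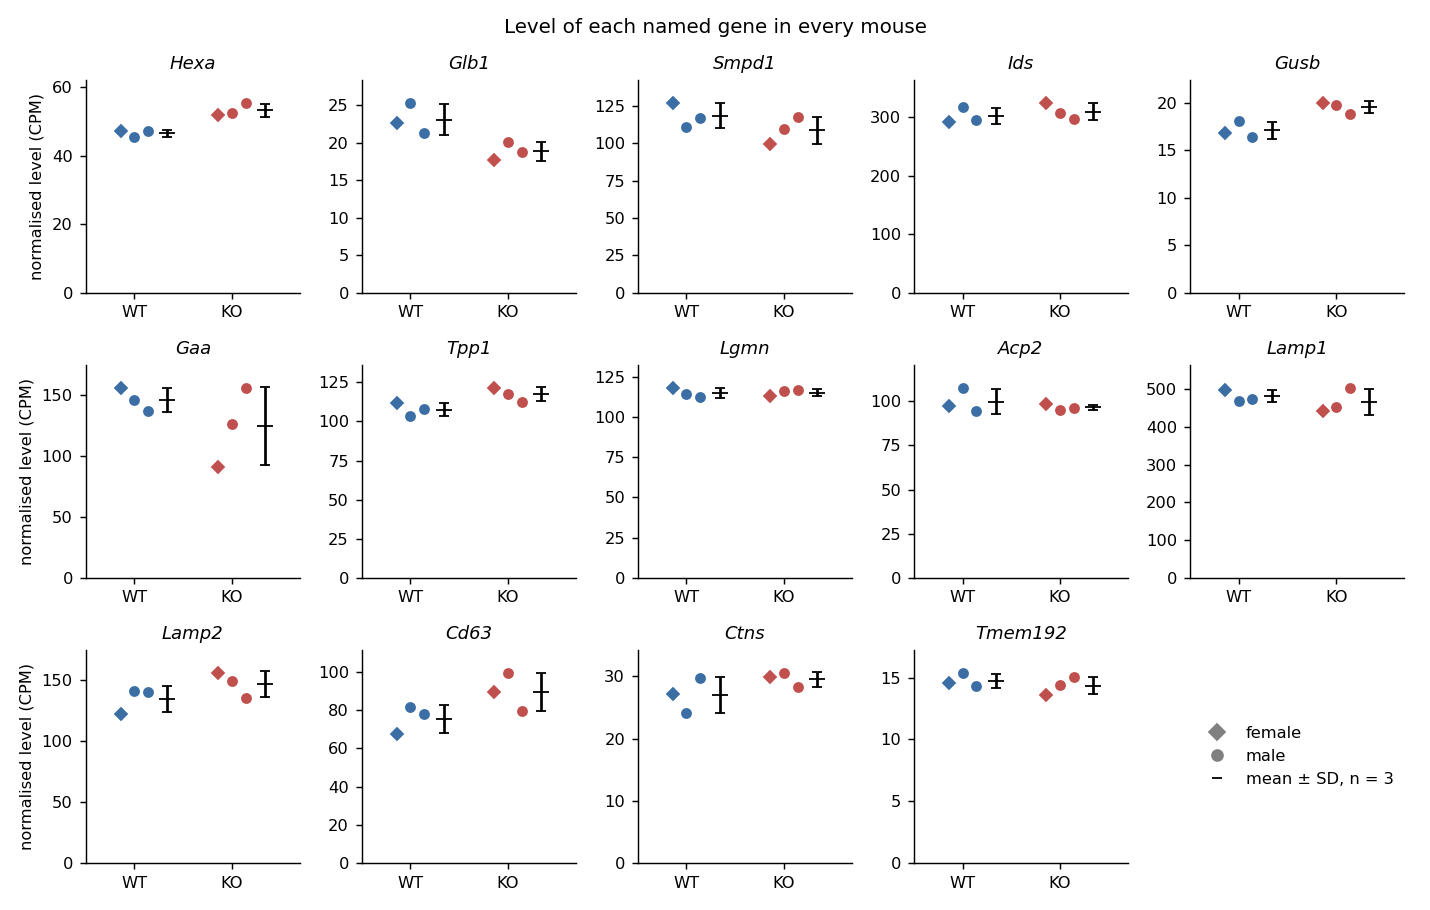
Normalised level (CPM, axes from 0) of the 14 members named by rule in each mouse, WT blue and KO red, with females as diamonds, males as circles and the mean ± SD of 3 mice in black. Hexa, Gusb and Tpp1 lie a little higher in KO and Glb1 a little lower with no overlap, and Gaa is low in 1 KO mouse.

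The structural membrane glycoproteins had 3 of 4 members above 0. Lamp1 (ENSMUSG00000031447, chr8:13159135-13175338) was at 498, 469 and 475 CPM in WT against 441, 451 and 503.6 CPM in KO, and the highest value of all was in a KO mouse. The log2 fold change was -0.05 (SE 0.07), and its 95% interval of -0.21 to 0.12 allows a fold of 0.862 to 1.087. Lamp2, which is also needed for chaperone-mediated autophagy and for fusion with autophagosomes, was at 121.5, 140.5 and 140.2 CPM in WT against 156, 149 and 135 CPM in KO (0.13, SE 0.09, edgeR adjusted p = 0.724). That difference was 0.22 without KO replicate 3 and 0.01 in the males alone. Leaving out KO replicate 1 (0.01) or WT replicate 1 (0.02) again left nearly the males alone, with the other female fitted by the sex term. Cd63 (ENSMUSG00000025351, chr10:128908919-128912816), whose product is a tetraspanin of late endosomes and exosomes, was at 67.4, 81.5 and 78.0 CPM in WT against 89.5, 99.7 and 79.9 CPM in KO. With the highest log2 fold change of the members, 0.25 (SE 0.10, unadjusted p = 0.035, edgeR adjusted p = 0.509), its groups still overlapped, and its smallest adjusted p over the alternatives was 0.0777, without KO replicate 3. Counts for a pseudogene, Cd63-ps (178.2 against 2367 on average), can share reads with it. Scarb2, which encodes LIMP-2, the receptor that brings glucocerebrosidase to the lysosome, was at 85.3 ± 0.56 CPM in WT against 88.7 ± 3.50 CPM in KO (n = 3 each, ± SD). Its log2 fold change was 0.06 with an SE of 0.07.

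Transporters and the other membrane proteins had a median of 0.002. Ctns, the cystine exporter gene of cystinosis, was at 27.2, 24.1 and 29.7 CPM in WT against 29.9, 30.6 and 28.3 CPM in KO (0.13, SE 0.10), a difference of 0.05 without WT replicate 2 and 0.22 without WT replicate 3. Tmem192, whose product is widely used as a tag for purifying lysosomes, was at 14.6, 15.4 and 14.3 CPM in WT against 13.6, 14.4 and 15.0 CPM in KO (-0.04, SE 0.10). Slc17a5, Mfsd8 and Cln3, of which the last 2 are ceroid lipofuscinosis genes, lay between -0.001 and 0.02 with SE of 0.11 to 0.13. For these thinly counted genes the 95% intervals reached 0.31 in size.

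As a sum over the 34 members the level was 2735, 2723 and 2682 CPM in WT against 2676, 2743 and 2789 CPM in KO, a difference of 0.829% between the means. Purkinje cell markers, 10 genes, summed to 10501 to 11368 CPM in WT against 6881 to 7956 CPM in KO, and microglial markers, 15 genes of which 0 were without counts, to 228.8 to 285.7 CPM in WT against 354.4 to 417.8 CPM in KO. Of these markers 5 Purkinje genes fell and 3 microglial genes, Fcrls and Cd68 among them, rose in edgeR. In the microglial list 13 genes lay above 0 and 2 below, at a median log2 fold change of 0.58. Not all of its genes rose, and Tmem119 (-0.01), Siglech (-0.005) and P2ry12 (0.08) stayed near 0. Of the other markers 1 rose (Gfap, of 9 for astrocytes and Bergmann glia) and 0 passed among those of granule cells, oligodendrocytes, choroid plexus and blood in edgeR. The list that holds Gfap did not rise as a whole, with 4 genes above 0, 5 below and a median log2 fold change of -0.02. Blood cell markers, with 7 of 9 tested, ran in sum from 72.3 to 89.9 CPM in WT and from 78.5 to 157.6 CPM in KO, a mean 48.5% higher. All 7 lay above 0 and 5 had an unadjusted p under 0.05 in edgeR, and DESeq2 called 1. The summed choroid plexus level ran from 288.8 to 6737 CPM in WT and from 2289 to 7214 CPM in KO, so it varied between mice of both genotypes. Their part in the values of single members was not tested. The Purkinje and microglial lists were known to change from earlier work on these libraries and are given as a measure of scale. In tissue RNA of this kind, fewer cells of a type and less RNA per cell cannot be told apart, and a change within 1 cell type can be hidden in the sum over all.

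**Figure D4:**
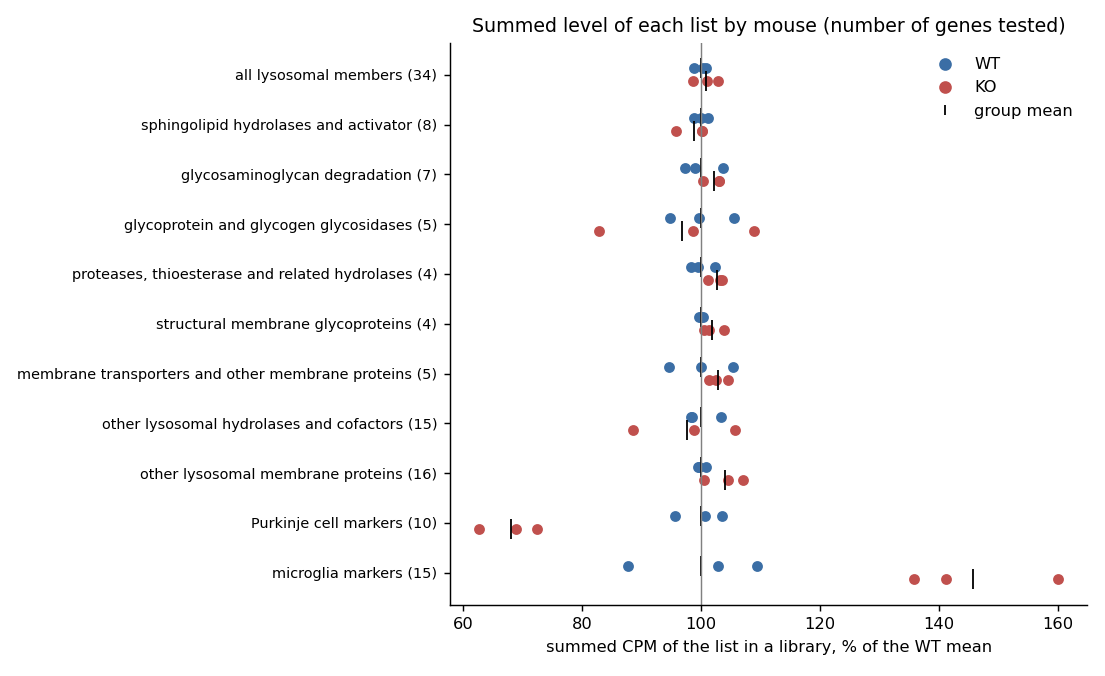
Summed CPM of the gene lists shown, in every mouse, as a percentage of the WT mean of that list (WT blue, KO red, black bars for group means, number of tested genes in brackets). The group means of the lysosomal lists lie near 100%, with the widest KO spread in the glycosidases, and the Purkinje and microglial markers lie apart from it. KO replicate 1 lies lower in the glycosidases (256.6 CPM, WT mean 309.9) and in the other hydrolases and cofactors (2559 CPM, WT mean 2891.5). Most of the latter sum is Psap, with a WT mean of 2166 CPM.

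Other lysosomal genes outside the members were read from 4 lists. Of the further hydrolases and cofactors 14 are described, and 0 of these passed in edgeR, DESeq2 or limma-voom, with 0 at an unadjusted p under 0.05 in edgeR. The one with the smallest p, Npc2, which encodes a cholesterol carrier, was at 81.6 ± 3.49 CPM in WT against 88.3 ± 8.80 CPM in KO (SD, n = 3 each), at a log2 fold change of 0.11 (SE 0.07, edgeR adjusted p = 0.722).

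Genes that sort hydrolases to the lysosome had 0 of 16 past the threshold in edgeR, DESeq2 and limma-voom. In each tool 2 of the 16 had an unadjusted p under 0.05, against 8.96%, 6.95% and 8.89% of all genes. In edgeR these 2 were Sort1 and Sorl1. Both encode sorting receptors of the sortilin family. Sort1 was at 290, 263 and 278 CPM in WT against 238, 247 and 240 CPM in KO (-0.19, SE 0.06, edgeR adjusted p = 0.379). Sorl1 was at 1109, 1002 and 1023 CPM in WT against 991, 923 and 903 CPM in KO (-0.15, SE 0.06, edgeR adjusted p = 0.509). Both were picked for their small p, and in both the KO mice lay below the WT mice, as they did in 6.35% of all genes. M6pr and Igf2r, the mannose 6-phosphate receptor genes, overlapped between genotypes (0.04, SE 0.06, and 0.15, SE 0.09). Gnptab, which encodes the transferase that starts the mannose 6-phosphate tag, was at 0.02 (SE 0.08).

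Among 11 tested genes of the TFEB family and the kinase complex that holds it in the cytoplasm, 0 passed in edgeR, DESeq2 or limma-voom, and 0 had an unadjusted p under 0.05. Tfeb itself was at 7.76 ± 1.30 CPM in WT against 7.34 ± 1.51 CPM in KO, and Tfe3 at 51.0 ± 4.41 and 53.1 ± 3.01 CPM (SD, n = 3 each). The 2 with the smallest p were Mtor (-0.14, SE 0.07) and Fnip2 (0.15, SE 0.08). Members with a GTCACGTG promoter match had a median log2 fold change of -0.05 over 8 genes, and those without one 0.06 over 23, both close to 0 and given without a test. Of 16 further genes of the lysosomal membrane 0 passed in the same 3 tools. At an unadjusted p under 0.05 were 4 in edgeR and limma-voom and 2 in DESeq2, against 8.96%, 8.89% and 6.95% of all genes. In edgeR 2 of the 4 were lower in KO, Abcb9 (-0.34, SE 0.14) and Laptm4b (-0.17, SE 0.07), both chosen after their values were seen. The 2 with the smallest p, both higher, were Tmem106a, a paralog of Tmem106b, and Laptm5, a gene of blood-derived and microglial cells. Tmem106a was at 1.31 ± 0.19 CPM in WT against 2.11 ± 0.35 CPM in KO (0.68, SE 0.23, edgeR adjusted p = 0.403). Laptm5 was at 0.39 (SE 0.15, edgeR adjusted p = 0.510). Tmem106c, another paralog and far more abundant, was at 40.3 ± 2.26 CPM in WT against 41.5 ± 1.64 CPM in KO (0.04, SE 0.08).

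Deviations of the members from their mean over the 6 libraries went with base composition, most strongly in KO replicates 1 and 3. Transcripts of the 35 members had 38.32% to 59.8% GC, with a median of 51.1% against 49.6% for the genes tested. In KO replicate 1 the 8 tested members with at least 55% GC lay at a median of -0.285 on the log2 scale from their mean over the 6 libraries, and the other 26 at 0.028. In KO replicate 3 the same 8 lay at 0.178 and the others at 0.004. A shift of near that size was present in WT replicate 1, with the 8 at 0.161 and the others at -0.022. Across the 34 members the correlation of this deviation with GC content was -0.66 in KO replicate 1 and 0.75 in KO replicate 3, and it lay between -0.32 and 0.35 in the other libraries (genes of 1 library, which are not independent replicates). Over 16771 genes it was -0.491 in KO replicate 1, 0.287 in KO replicate 3 and 0.186 in WT replicate 1.

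**Figure D5:**
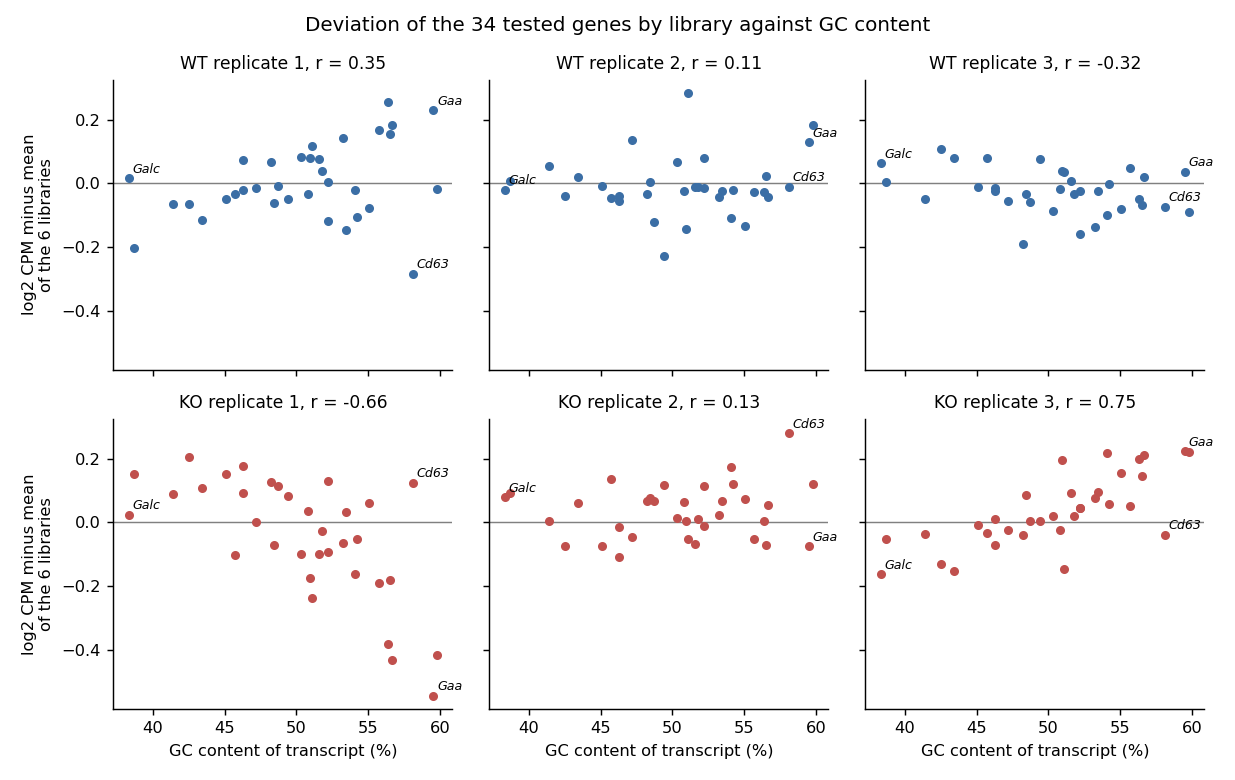
Deviation of each tested member from its mean over the 6 libraries (log2 CPM) against the GC content of its longest transcript (%), 1 panel per library, WT blue and KO red, with the correlation across the 34 genes. GC-rich members such as Gaa lie low in KO replicate 1 and high in KO replicate 3.

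With the GC and length trend of each library removed, again 0 members passed, where 2.05% of all genes did. The SE of Gaa became 0.07 in place of 0.16, at a log2 fold change of -0.15 (edgeR adjusted p = 0.348). Hexa came to 0.26 (SE 0.06, edgeR adjusted p = 0.0729), Man2b1 to 0.21 (SE 0.06, edgeR adjusted p = 0.161), Gusb to 0.22 (SE 0.09, 0.328), Fuca1 to 0.18 (SE 0.07, 0.317) and Tpp1 to 0.12 (SE 0.05, 0.312). These 5 and Gaa and Glb1 were the members at an unadjusted p under 0.05 in that fit, 7 of 34, where 13.3% of all genes were. Cd63 was no longer among them, at 0.34 with a larger SE of 0.20 (edgeR adjusted p = 0.585).

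Sex was balanced between the genotypes. In its term of the same model, 2 females against 4 males, 0 members passed and 0 had an unadjusted p under 0.05, against 0.0354% of all genes past the adjusted threshold and 6.68% at the unadjusted one. Differences of females from males ran from -0.32 (Naglu) to 0.19 (Gla) on the log2 scale. The 3 X-linked members were Gla at 0.19, Ids at 0.02 and Lamp2 at -0.04, with an edgeR adjusted p of at least 0.72 in all members.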

How the data were processed

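Cerebellar RNA of 6 mice was analysed from 1 table of raw read counts per gene, whole numbers that the authors deposited with gene coordinates, lengths and symbols. The submitters' processing notes name STAR and mm10. Neither the counting tool nor its strand setting or annotation is given in the sources used here.

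The counts went into edgeR 4.0.16 (R 4.3.3). filterByExpr (minimum count 10, minimum total 15) kept 16934 genes, and TMM set the scaling. Genotype was tested with sex in the model by the robust, legacy form of glmQLFit, with p adjusted across every tested gene (Benjamini-Hochberg, threshold 0.05). SE was taken as the size of the log2 fold change over the root of F, and 95% intervals use the moderated degrees of freedom. DESeq2 1.42.0 and limma-voom (limma 3.58.1) were among 16 alternatives. GC content came from the longest GENCODE M21 transcript (99.04% of tested genes), and offsets from a loess on GC and length (span 0.5). The steps were tested on simulated counts. Of 37 promoter windows, 33 ended within a GENCODE transcript of their gene. Mice of 1 genotype differed beyond counting noise (chi-square over its degrees of freedom, 6.964 to 28.75).

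Members, role groups and lists were chosen with earlier results of these data known. Values of every mouse were printed for members past the threshold or at an unadjusted p under 0.05, for the member of each role group with the highest level per length and the one with the largest change, and for Lamp1, Lamp2 and Hexa. Fuca1 was added after its values were seen. Of each other pathway list, genes past the threshold and the 2 with the smallest p were named, and M6pr, Igf2r, Gnptab, Tfeb and Tfe3 were added for their roles. Tmem106c was added later as a paralog of Tmem106b, with its values seen. One gene of these lists is not reported here.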

Additional observations from a re-analysis of the deposited data

How the results depend on the processing

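In the 16 alternatives (size factors by RLE, 2 other filters, DESeq2, limma-voom, the newer test version, a model without sex, the 4 males, each mouse left out, a threshold of 0.10, offsets for GC and length) the count of members past the threshold was 0 in each direction every time. Without WT replicate 2 or without WT replicate 3 only 1 gene of all those tested passed, so these 2 settings say little. Without either female (WT replicate 1 or KO replicate 1), the sex term fits the other female alone. These settings are therefore nearly the comparison of the 4 males and no separate check. The median log2 fold change of the members was 0.02 and lay between 0.016 and 0.064 with 1 mouse left out, the highest value coming without KO replicate 3. Among the single genes named by rule 11 values changed sign, all of them in genes near 0. Ids came to -0.028 in the males, -0.020 with GC and length offsets and -0.028 to 0.087 with 1 mouse left out. Lamp1 came to 0.0087 in the males and -0.092 to 0.017 with 1 mouse left out. Lgmn came to -0.00027 with no filter and -0.014 to 0.037 with 1 mouse left out, and Acp2 to -0.092 to 0.017. Some members not named by rule also changed sign, at values further from 0 in the main fit. Over the 16 alternatives Plbd2 (-0.105 in the main fit) ran from -0.203 to 0.145. Sgsh (-0.112 in the main fit) ran from -0.223 to 0.144. The cause was not tested. No paired analysis was possible because the labels give no replicate numbers and the numbers used here follow the order of deposit. The titles hold codes, one of which 1 WT and 2 KO mice share, but nothing in the labels says what they mark, and a shared litter or cage was not tested. With 3 mice per genotype the median half-width of the members' 95% intervals was 0.212 on the log2 scale, and smaller differences were mostly not resolved.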
